A study of Mus musculus with 56 samples.

Results

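The genes described are those whose symbol begins with Mrpl or Mrps followed by a digit, the mitochondrial ribosomal protein genes. Membership followed from the symbol alone, with no measured value in the rule. Of 22864 genes listed for mouse heart, 81 symbols matched, 4 pseudogene symbols were dropped, and the 77 that remained all reached the level needed for testing (a mean of at least 1 TPM, a unit of RNA level corrected for gene length and scaled to the same total in each library). The hearts came from female C57BL/6J mice, an inbred strain, aged 9 weeks, on a cycle of 12 h of light followed by 12 h of dark, and the labels name no genetic change. One set of mice could eat only by day (DRF, feeding restricted to daytime) and the other only by night (NRF, feeding restricted to nighttime, the usual feeding time of mice and here the reference), over 7 days that followed a period of free access to chow. Hearts were collected every 4 h from ZT0 (zeitgeber time, hours after lights on) to ZT24, which makes 14 groups of 4 libraries and 56 libraries in all. Nothing in the labels ties a replicate number to an animal, so p-values measure the spread between these libraries.

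Mitochondria carry their own ribosome, the mitoribosome, which makes the few proteins encoded by mitochondrial DNA, all of them core subunits of the respiratory chain and ATP synthase. Its RNA is transcribed inside the organelle, whereas every one of its proteins is encoded in the nucleus, made in the cytosol and imported. The heart, which depends on oxidative phosphorylation, is rich in mitochondria. Its large subunit, whose ribosomal RNA catalyses the peptide bond, holds the proteins mostly named Mrpl, and its small subunit, where the codons of the messenger RNA are read, those mostly named Mrps. Of the 77 genes, 50 encode large subunit proteins, among them Mrps30 and Mrps18a despite their names, and 26 encode small subunit proteins. Mrps36 was named as a ribosomal protein and is now assigned to the 2-oxoglutarate dehydrogenase complex, so it belongs to neither. By origin, 46 encode proteins with a counterpart in the bacterial ribosome and 30 encode proteins that mitochondria added.

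The genes lie scattered over 17 chromosomes, with 11 on chromosome 11 and 8 on chromosome 17 (GRCm38). RefSeq promoter windows of 300 bases (250 before and 50 after the transcription start, build GRCm38.p6) matched 68 of the 77 symbols and 9913 of all genes tested. Each window was searched on both strands for short motifs. The ETS motif CCGGAAG, the target of a family of factors that includes the mitochondrial gene regulator GABP, occurred in 23 of the 68 windows (33.8%) and in 18.2% of the windows of all genes tested. The motif AAGATGGCG of YY1 occurred in 8 (11.8%) against 3.20%, and the motif GCATGCGC of NRF1, a regulator of nuclear genes for mitochondrial proteins, in 8 (11.8%) against 5.36%. A longer NRF1 palindrome, which contains the shorter motif, was found in 3. The E-box CACGTG, bound by the clock factors CLOCK and BMAL1, occurred in 5 windows (7.35%) against 10.1% of all. The D-box TTANGTAA and the ROR/REV-ERB motif TAGGTCA occurred in 0 of 68 windows, against 1.34% and 1.85% of all. A match is a description of the letters and does not show a bound site.

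Promoter stretches of 4 genes that recur in the results are printed 5′ to 3′ on the strand of the gene, in lower case with matches in capitals. Mrps14 had different rhythms under the regimens and its window held none of these motifs, Mrps18a had one of the largest rhythms under NRF, an ETS motif and, after the transcription start and outside the printed stretch, a YY1 motif, Mrpl20 was among the genes that differed most at ZT20 and had an E-box, and Mrpl34 was among the most abundant and had an ETS motif. The stretches are chr1:160194965-160195214 for Mrps14, chr17:46110754-46110985 for Mrps18a, chr4:155802628-155802877 for Mrpl20 and chr8:71464676-71464925 for Mrpl34, all on the plus strand of GRCm38.p6 and free of annotated exons.
Mrps14: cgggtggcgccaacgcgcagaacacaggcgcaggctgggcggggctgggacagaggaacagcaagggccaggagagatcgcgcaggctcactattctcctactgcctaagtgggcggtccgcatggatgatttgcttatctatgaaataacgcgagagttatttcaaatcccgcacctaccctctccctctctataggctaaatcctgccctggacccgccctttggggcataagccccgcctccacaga
Mrps18a: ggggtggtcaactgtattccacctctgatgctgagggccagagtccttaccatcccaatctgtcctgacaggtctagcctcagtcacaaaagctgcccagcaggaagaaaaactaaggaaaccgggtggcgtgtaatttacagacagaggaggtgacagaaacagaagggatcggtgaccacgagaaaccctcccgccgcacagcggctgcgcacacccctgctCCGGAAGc
Mrpl20: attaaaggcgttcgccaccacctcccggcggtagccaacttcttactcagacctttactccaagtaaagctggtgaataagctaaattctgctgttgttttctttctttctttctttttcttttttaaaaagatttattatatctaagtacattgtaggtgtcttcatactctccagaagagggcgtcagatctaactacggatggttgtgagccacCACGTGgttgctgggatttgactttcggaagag
Mrpl34: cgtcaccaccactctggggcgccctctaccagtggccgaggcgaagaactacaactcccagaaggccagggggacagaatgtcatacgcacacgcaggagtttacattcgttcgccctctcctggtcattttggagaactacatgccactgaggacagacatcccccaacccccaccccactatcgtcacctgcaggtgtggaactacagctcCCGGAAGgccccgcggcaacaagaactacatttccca

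The libraries held 29.3 to 53.0 megareads as recovered, with means of 38.4 megareads under NRF and 38.1 megareads under DRF, and each of the 77 genes had a mean of 484 to 9304 reads per library. Cardiomyocyte markers (Myh6, Actc1, Tnnt2, Tnni3, Ryr2 and Pln) were present in every library with a summed level of 17802 to 29983 TPM. Markers of other cells varied between libraries. The summed level of 4 atrial markers ran from 95.0 to 5483 TPM (means of 1236 TPM under NRF and 2005 TPM under DRF) and that of 4 red blood cell markers from 1392 to 63188 TPM. Sln, an atrial marker, was at 0 in 1 library, and the T cell markers Cd3e and Cd8a did not exceed 0.280 and 0.693 TPM.

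The summed level of the 77 genes was 4129 to 5879 TPM over the 56 libraries, and the genes took 0.384% to 0.497% of all reads. Single genes spanned a wide range, with mean levels from 6.15 to 279 TPM and a median of 41.2 TPM. Mrps21, a small subunit protein with a bacterial counterpart, was highest at 279 ± 27.4 TPM (SD, n = 56), followed by Mrpl34 at 271 ± 32.8 TPM, which did not differ from it beyond their spread. Mrps23, a mitochondria-specific protein of the small subunit, averaged 177 ± 15.9 TPM, Mrpl14 168 ± 17.1 TPM and Mrpl28 160 ± 14.2 TPM. At the low end were Mrps10 at 6.15 ± 0.464 TPM, Mrps30 at 7.89 ± 0.690 TPM and Mrps22 at 11.01 ± 0.769 TPM. The median was 51.0 TPM for the large subunit and 26.5 TPM for the small subunit, and 40.7 TPM for proteins with a bacterial counterpart against 43.3 TPM for those without. These are RNA levels per gene length, and the proteins themselves are present in fixed proportions in the ribosome. Levels were steady, with a coefficient of variation over the 56 libraries of 5.28% to 14.5% (median 8.89%), against a median of 13.97% for all genes tested. The genes tested include ones of lower level, and genes of similar level were not compared separately.

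The genes moved together. Across libraries of the same group, the median correlation between a pair of them was 0.54 on the log2(TPM + 1) scale, against 0.80 among cytosolic ribosomal protein genes and 0.61 among nuclear respiratory chain genes. These correlations are over 56 libraries that share composition and depth, and they are given as a description. Over the 14 group means, the profile of a gene correlated with the median profile of the others at a median of 0.69. The values ran from -0.72 for Mrps30 to 0.95 for Mrpl20, and 59 genes were above 0.5. Mrps30 and Mrpl39, both mitochondria-specific proteins of the large subunit, were the 2 genes with a negative value.

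To ask when in the day the mitoribosomal genes peak, a 24 h cosine curve was fitted to the 28 libraries of each regimen on the log2(TPM + 1) scale. Under NRF 23 of 77 genes were rhythmic (limma F test, Benjamini-Hochberg adjusted p under 0.05 over all genes tested), 29.9% against 37.2% of all genes. Under DRF 15 were rhythmic, 19.5% against 32.2% of all. Both counts depended on the scale. The NRF count was 36 of 77 with size factors from the median of ratios (46.4% of all genes), 35 with voom weights (44.7%) and 30 with TPM over nuclear genes only (39.1%). The DRF count was 14 (32.8%), 15 (32.9%) and 9 (26.3%) in the same order, and 7 on the deposited values. The rhythms were shallow. The fitted peak was 1.11 to 1.25 times the trough under NRF (median amplitude 0.11 on the log2 scale, against 0.18 for all rhythmic genes) and 1.13 to 1.31 times under DRF (median 0.12 against 0.16). The large subunit had 16 rhythmic genes of 50 under NRF and 8 under DRF, and the small subunit 6 and 7 of 26. The other rhythmic gene under NRF was Mrps36. Leaving out replicates 1, 2, 3 and 4 of every group in turn left 12, 6, 6 and 19 rhythmic genes under NRF and 8, 6, 7 and 8 under DRF.

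The peaks gathered at different times of day under the regimens. Under NRF 22 of the 23 rhythmic genes peaked between ZT20 and ZT4, around the end of the night, where 29.2% of all genes rhythmic under NRF had their peak. Under DRF 14 of the 15 rhythmic genes peaked between ZT4 and ZT12, in the second part of the day, where 52.3% of all genes rhythmic under DRF had theirs. These windows were chosen after the peaks were seen. The exception in both was Mrpl39. Over all 77 genes, rhythmic or not, 56 fitted peaks under NRF fell in the first window (28.4% of all genes tested did) and 57 under DRF in the second (48.3%). The DRF count depended on the scale, with 29 of 77 in the second window with size factors from the median of ratios, 46 over nuclear genes only and 29 on the deposited values, while the NRF count was 63, 55 and 60. The mean peak of the rhythmic genes was ZT23.8 under NRF and ZT7.44 under DRF, which is 11.8 h and 7.44 h after the start of the feeding window. With size factors from the median of ratios 33 of 36 rhythmic genes peaked in the NRF window and 8 of 14 in the DRF window. With TPM over nuclear genes only the counts were 27 of 30 and 8 of 9. The share of all genes in each window was computed in TPM only. How far the counts on the other scales exceed it is therefore not known.

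**Figure D1:**
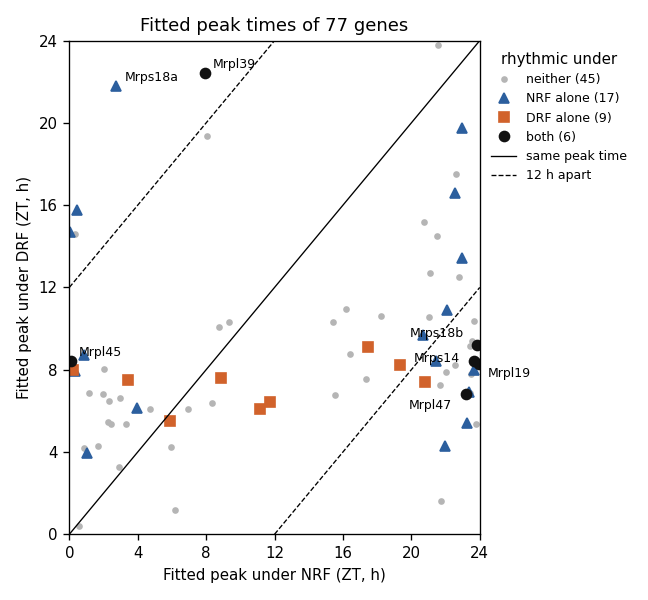
Fitted peak time under NRF (x axis, ZT in hours) against that under DRF (y axis, ZT in hours) for the 77 genes, one point per gene, with symbols for the regimens in which a gene was rhythmic, a solid line for equal peaks and dashed lines for peaks 12 h apart. Most rhythmic genes sit near ZT0 on the x axis and between ZT4 and ZT12 on the y axis, with Mrpl39 at ZT7.91 and ZT22.4 as the exception among the 6 genes rhythmic under both.

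Mrpl19, a large subunit protein with a bacterial counterpart, had the largest amplitude under NRF, 0.16 ± 0.04 on the log2 scale (SE; adjusted p = 0.00604, limma), with a peak at ZT23.96. Mrps18a, a paralog of the small subunit protein S18 that sits in the large subunit, followed at 0.14 ± 0.03 with a peak at ZT2.73 (adjusted p = 0.00186). Mrpl47, the counterpart of a bacterial protein near the exit of the peptide tunnel, had an amplitude of 0.14 ± 0.04 and a peak at ZT23.2 (adjusted p = 0.0117). Mrps2 (0.13, peak ZT23.2), Mrpl12 (0.13, peak ZT21.4), a protein of the flexible stalk that recruits translation factors, and Mrpl39 (0.13, peak ZT7.91) completed the 6 largest. Under DRF the order was led by Mrpl47 with an amplitude of 0.20 ± 0.03 and a peak at ZT6.81 (adjusted p = 6.1e-06), and by Mrpl19 with 0.19 ± 0.04 and a peak at ZT8.27 (adjusted p = 0.00112). Mrpl18 (0.17, peak ZT9.11), whose bacterial counterpart binds 5S ribosomal RNA, and the mitochondria-specific Mrps34 (0.16, peak ZT7.59), Mrpl43 (0.15, peak ZT6.43) and Mrps23 (0.13, peak ZT7.97) came next. These 4 were not past the threshold under NRF.

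Whether a rhythm differed between regimens was tested with the interaction of regimen and time in all 56 libraries. It differed for 22 of 77 genes (28.6%), against 27.5% of all genes tested, and these were 17 of 50 large subunit and 5 of 26 small subunit genes. Of the 22, 16 were rhythmic under NRF, 10 under DRF, 6 under both and 2 under neither, and 21 had fitted peaks at least 6 h apart. The exception was Mrps18a, with peaks 4.95 h apart. The 22 were picked by a test on the same fitted curves, so the distance between their peaks is a description and not separate support. For those not rhythmic under both, at least 1 of the peaks belongs to a curve not called rhythmic. Of all 77, 42 had peaks at least 6 h apart, against 41% of all genes tested. Counting time from the start of feeding instead of from lights on, the rhythms still differed for 11 of 77 genes (14.3%), against 41.3% of all genes tested. The share of all genes was thus higher with alignment to feeding than without it, and that of the mitoribosomal genes was lower. A low share after alignment was not particular to them. It was 11 of 83 nuclear respiratory chain genes (13.3%) and 10 of 87 cytosolic ribosomal protein genes (11.5%), which had 1 and 2 without alignment. Of the 77 genes, 45 were rhythmic under neither regimen. The differences between these shares were not tested. For the 77 genes, the count without alignment was also the higher one on other scales. With size factors from the median of ratios the counts were 32 and 10, against 33.1% and 44.8% of all genes. With voom weights they were 32 and 14 (31.5% and 44.7%), and with TPM over nuclear genes only 25 and 15 (26.6% and 38.5%). Without replicates 1, 2, 3 and 4 of every group in turn, the rhythm differed for 16, 12, 9 and 17 genes, against 22.7%, 15.9%, 13.3% and 23.6% of all genes. After alignment it differed for 6, 6, 11 and 6, against 34.6%, 26.8%, 33.3% and 31.6%. Without replicate 3 the count was thus higher after alignment, as was the share of all genes.

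All 6 genes that were rhythmic under both regimens (17.5% of all genes tested were) had different rhythms. Their peaks were 7.62 to 9.49 h apart, and 5 fell in the class of 8 to 12 h that the study calls phase inverted. That class held 17.7% of all genes rhythmic under both. Fewer genes were rhythmic under both whenever a replicate number was left out. With size factors from the median of ratios the median shift was longer. These values are given with the dependence on processing. The smallest shift was that of Mrpl47, from ZT23.2 to ZT6.81, 7.62 ± 1.20 h later (SE; 95% interval 5.26 to 9.98 h, adjusted p = 2.2e-05 for a different rhythm). Mrpl19 moved by 8.31 ± 1.26 h (adjusted p = 6.4e-05) and Mrpl45, a mitochondria-specific protein of the large subunit, by 8.36 ± 1.67 h (adjusted p = 0.00293). Mrps14, a small subunit protein with a bacterial counterpart, peaked 8.80 ± 1.52 h later, at ZT8.45 instead of ZT23.6 (adjusted p = 0.000594). Mrps18b, from ZT23.8 to ZT9.19, moved by 9.37 ± 1.75 h (adjusted p = 0.00200), and its interval reached past 12 h, which none of the other 5 did. Mrpl39 ran the other way round, with a peak at ZT7.91 under NRF and at ZT22.4 under DRF, 9.49 ± 1.27 h apart (adjusted p = 6.4e-05). Mrpl35 (adjusted p = 0.000670), with peaks at ZT0.867 and ZT8.74, and Mrpl18 (adjusted p = 0.000776), with peaks at ZT17.4 and ZT9.11, completed the 6 smallest p-values for a different rhythm. The call of a different rhythm held for all 8 of these genes in the 12 alternatives run on them (pseudocount, filters, scalings, deposited values, voom, replicate block and leaving out a replicate number), with a highest adjusted p of 0.0379 (Mrpl18). Leaving out a time was not run on single genes.

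The libraries behind these shifts changed order between times of day. For Mrpl47 at ZT12 the NRF libraries read 14.01, 11.1, 11.2 and 11.2 TPM and the DRF libraries 13.43 to 14.37 TPM. At ZT20 the order was turned, with 14.74, 16.002, 13.95 and 12.77 TPM under NRF and 11.37, 10.42, 10.57 and 12.75 TPM under DRF. At ZT12 3 NRF libraries lay below all DRF libraries and 1 lay within their range, and at ZT20 the groups did not overlap, although the nearest libraries were 12.77 and 12.75 TPM. For Mrpl19 at ZT12 the NRF libraries held 10.8, 9.78, 10.5 and 9.96 TPM against 12.50, 11.25, 12.21 and 14.15 TPM under DRF, with no overlap. At ZT0 they held 13.2, 12.5, 17.1 and 11.3 TPM against 10.41, 10.97, 9.82 and 11.12 TPM, again with every NRF library higher. Mrps14 at ZT0 read 31.5, 33.6, 35.1 and 27.95 TPM under NRF and 23.2, 27.1, 30.01 and 27.4 TPM under DRF, where the lowest NRF library fell within the DRF range. Mrpl39 was mirrored. At ZT12 its libraries read 53.8, 55.1, 60.3 and 53.4 TPM under NRF and 45.3, 49.3, 45.9 and 52.2 TPM under DRF, all lower.

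**Figure D2:**
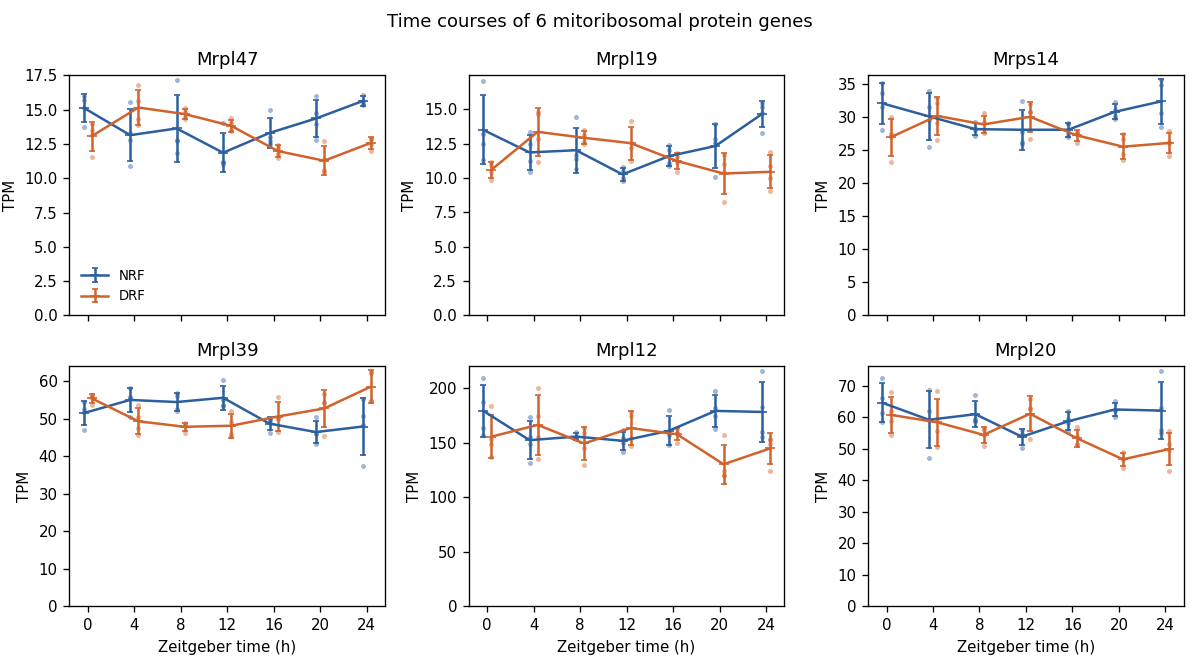
TPM (y axis, from 0) of 6 mitoribosomal protein genes at 7 zeitgeber times (x axis, hours) under NRF (blue) and DRF (orange), with points for single libraries and bars for the mean ± SD of 4. Mrpl47, Mrpl19 and Mrps14 cross between the day and the night, Mrpl39 crosses the other way, and Mrpl12 and Mrpl20 part at ZT20, where Mrpl12 averaged 179 TPM under NRF and 130 TPM under DRF.

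Regimens were then compared at each time, in a limma model of the 14 group means. In TPM the difference was largest at ZT20, 8 h into the night, when food was open to NRF mice and closed to DRF mice. At ZT20, 27 of 77 genes were lower under DRF, against 11.5% of all genes tested, and 0 were higher (3.35%). The 27 were 17 large subunit genes, 9 small subunit genes and Mrps36. Of all 77, 74 had a negative difference, with a median of -0.19 on the log2(TPM + 1) scale against -0.07 for all genes tested. In 33 genes all 4 DRF libraries lay below all 4 NRF libraries, as for 15.3% of all genes tested, and in 0 genes all 4 lay above (4.38%). The 77 genes added up to 5124 ± 265 TPM under NRF at ZT20 (SD, n = 4, range 4775 to 5418) and to 4394 ± 254 TPM under DRF (range 4129 to 4712). The latter was the lowest mean of the 14 groups on this scale.

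Mrpl12 had the largest difference at ZT20, with 182, 174, 198 and 163 TPM under NRF and 120, 124, 157 and 120 TPM under DRF. Every DRF library was lower, and the fall was 0.46 ± 0.11 on the log2 scale (a difference of -0.46, SE 0.11, adjusted p = 0.00263). Mrpl20, a large subunit protein with a bacterial counterpart, read 62.4, 62.1, 65.0 and 60.1 TPM under NRF and 43.9, 46.7, 49.0 and 46.7 TPM under DRF. The difference was -0.41 ± 0.09 (adjusted p = 0.00167). Mrpl18 held 125, 115, 128 and 110 TPM against 81.4 to 99.5 TPM under DRF (-0.36 ± 0.08, adjusted p = 0.00238). Mrpl14 ranged from 170 to 199.9 TPM under NRF and from 124 to 168 TPM under DRF (-0.34 ± 0.09, adjusted p = 0.0104). Mrpl34, one of the 2 most abundant genes, ranged from 263 to 325 TPM and from 217 to 242 TPM (-0.33 ± 0.10, adjusted p = 0.0239). In none of these 5 genes did the 2 groups overlap.

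**Figure D3:**
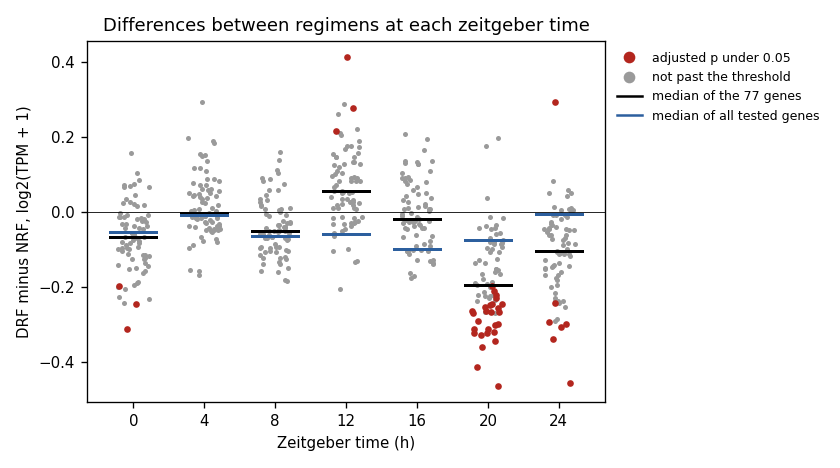
Difference between DRF and NRF (y axis, log2 of TPM + 1) of the 77 genes at each zeitgeber time (x axis, hours), one point per gene, red where the adjusted p was under 0.05, with black bars for the median of the 77 genes and blue bars for the median of all genes tested. The cloud lies lowest at ZT20, where 74 of 77 points are below 0 and 27 are red, and highest at ZT12, where the median is 0.06.

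How many genes passed at ZT20 depended on the scale. Mitochondrially encoded transcripts took 22.5% to 24.9% of reads in the DRF libraries and 19.5% to 20.5% in the NRF libraries at that time, and these transcripts enter the sum to which TPM is scaled. With TPM computed over nuclear genes only, 5 genes were lower and 2 higher, with a median of -0.08 (all genes 0.03, with 3.79% lower). With size factors from the median of ratios, 9 were lower and 2 higher, with a median of -0.13 (all genes -0.01, with 8.45% lower). All of these 5 and 9 were among the 27. Relative to the median of all genes tested, the median of the 77 genes was -0.12 in TPM, -0.11 with nuclear genes only and -0.11 with the median of ratios. The 5 genes past the threshold on all 3 scales were Mrpl12, Mrpl20, Mrpl28, Mrpl36 and Mrps17. The 2 genes that were higher on the other scales were Mrps30 and Mrpl39 on both, with differences of 0.32 and 0.30 over nuclear genes. The summed level over nuclear genes overlapped between the groups, with 7825 to 8815 TPM under NRF and 7184 to 8341 TPM under DRF. On this scale the mean sums were further apart at ZT24 (8612 TPM under NRF, 8002 TPM under DRF) than at ZT20 (8402 and 7838 TPM). With size factors from the median of ratios the sums at ZT20 did not overlap, with 4881 to 5626 under NRF and 4349 to 4864 under DRF. There the lowest mean of the 14 groups was that of NRF ZT12 (4518), below DRF ZT20 (4589). Leaving out single libraries also moved the count of 27, to 12 and 17 without replicates 1 and 2 of DRF ZT20, and to 16, 16 and 14 without replicates 1, 2 and 3 of NRF ZT20. With the atrial and red blood cell marker sums as covariates, added after seeing the data, it was 39, and the share of all genes tested that were lower was 15.4% instead of 11.5%. At ZT20 the atrial sum ran from 95.0 to 2632 TPM under DRF and from 436 to 1601 TPM under NRF, and the red blood cell sum from 1623 to 44256 TPM and from 2462 to 36370 TPM. Several other marker sums were on average lower under DRF at ZT20. The cardiomyocyte sum ran from 17802 to 23994 TPM under DRF and from 22589 to 25083 TPM under NRF. Its markers did not move together. The means of Actc1 (10490 against 12200 TPM), Tnnt2 (1349 against 1456 TPM) and Tnni3 (4079 against 4560 TPM) were lower under DRF. Those of Myh6 (4839 against 4617 TPM), Ryr2 (113 against 83.4 TPM) and Pln (1040 against 1005 TPM) were higher. The sum of 4 fibroblast markers ran from 369 to 464 TPM under DRF and from 458 to 537 TPM under NRF, with Col3a1 at means of 42.7 and 75.0 TPM, and that of 4 macrophage markers from 69.5 to 92.0 TPM and from 87.3 to 98.3 TPM. Over the whole day the skeletal muscle marker sum, nearly all from Acta1, averaged 236 TPM under DRF and 368 TPM under NRF. Their part in the result was not tested.

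**Figure D4:**
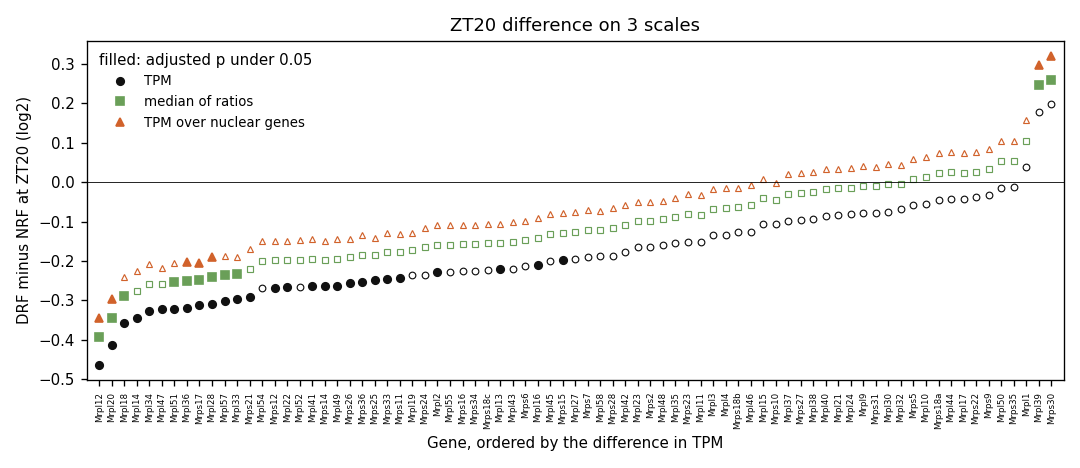
Difference between DRF and NRF at ZT20 (y axis, log2) for each of the 77 genes, ordered along the x axis by its value in TPM, on 3 scales (black circles TPM, green squares median of ratios, orange triangles TPM over nuclear genes), with filled symbols where the adjusted p was under 0.05. The 3 scales nearly keep the order of the genes, with changes of place between genes of similar value. They differ by a near constant offset, so that 74, 65 and 54 genes lie below 0.

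**Figure D5:**
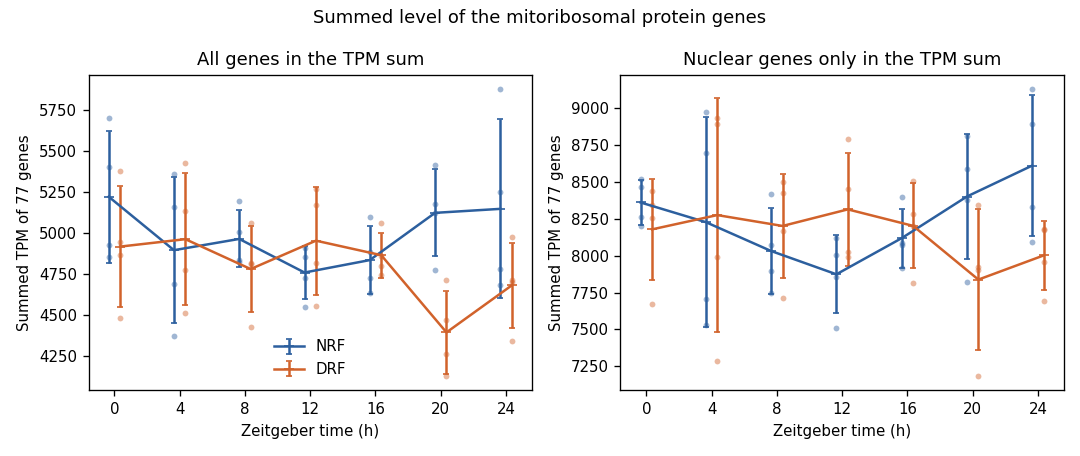
Summed level of the 77 genes (y axes, TPM, not starting at 0) in each library at 7 zeitgeber times (x axis, hours) under NRF (blue) and DRF (orange), scaled over all genes at left and over nuclear genes only at right, with points for libraries and bars for the mean ± SD of 4. At ZT20 the 2 sets of 4 points are apart at left (4775 to 5418 against 4129 to 4712 TPM) and overlap at right.

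Fewer genes passed at the other times. At ZT24, 6 were lower under DRF (7.79%, against 4.45% of all genes tested) and 1 was higher (against 4.38%). The 6 were Mrpl19 (-0.46 ± 0.10, adjusted p = 0.00260), Mrpl45 (-0.34), Mrpl20 (-0.31), Mrps14 (-0.30), Mrpl47 (-0.29) and Mrpl35 (-0.24), and 3 of them were also lower at ZT20. Mrpl39 was the one that was higher, by 0.29 ± 0.07, with 50.8, 55.4, 48.3 and 37.3 TPM under NRF and 54.9, 54.8, 62.1 and 62.6 TPM under DRF, where the highest NRF library fell within the DRF range. The count of 7 fell to 2, 3 and 2 without replicate 1 of DRF and replicates 2 and 3 of NRF, and rose to 12 without replicate 1 of NRF. With voom weights it was 16. At ZT0, 3 genes were lower under DRF, Mrpl19 (-0.31), Mrps14 (-0.24) and Mrpl35 (-0.20), against 8.43% of all genes tested, and 0 were higher (3.04%). None of them passed without replicate 1 of DRF, replicate 1 of NRF or replicate 3 of NRF, and 1 passed without replicate 2 of DRF. At ZT12, at the end of the light phase, 3 genes were higher under DRF (1.27% of all genes tested) and 0 lower (6.38%). They were Mrps18b (0.41 ± 0.09, adjusted p = 0.00320), Mrpl1 (0.28) and Mrps22 (0.22), and 1 passed without replicate 3 of DRF. The count of genes that differed at ZT12 was 9 with size factors from the median of ratios, 5 with TPM over nuclear genes only, 11 with voom weights and 15 with the marker covariates. For Mrpl1 every DRF library (16.09 to 20.2 TPM) was above every NRF library (14.1 to 16.03 TPM). Genes called at ZT0, ZT12 and ZT24 that the naming rule did not cover were named after their values were seen.

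How far the libraries of both regimens separated at the other times is seen from the genes whose groups did not overlap. All 4 DRF libraries lay below all 4 NRF libraries in 3 genes at ZT0 (10.3% of all genes tested) and in 0 at ZT4 (1.06%). This held for 2 genes at ZT8 (5.97%), and ZT12 gave 1 gene (10.9%), ZT16 gave 6 (17.8%) and ZT24 gave 10 (6.49%). They lay above in 0 genes at ZT0 (5.16%), ZT4 (1.83%), ZT8 (1.56%) and ZT24 (6.99%), in 8 at ZT12 (2.58%) and in 3 at ZT16 (1.76%).

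At ZT4, ZT8 and ZT16 limma called 0 of 77 genes, with smallest adjusted p-values of 0.210, 0.256 and 0.0803. At an unadjusted p under 0.05 there were 6, 5 and 5, which is 7.79%, 6.49% and 6.49% against 12.0%, 14.6% and 24.2% of all genes tested. Voom weights on the recovered reads gave 0, 0 and 1. Of all genes tested, 0.115%, 0.259% and 6.23% were lower at these times and 0.331%, 0.0936% and 0.648% were higher. Without replicate 1 of DRF 1 gene passed at ZT4, and without replicate 1 of every group 2 did. Hearts taken 1 day apart, at ZT0 and ZT24, gave 0 calls by limma within DRF (0.425% of all genes tested) and 0 within NRF (0.0576%). The unadjusted counts were 4 (5.19%, against 12.2% of all genes tested) and 2 (2.60%, against 9.16%), and voom also gave 0 in each.

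The level over the whole day differed little. Averaged over the 7 times, 6 genes were lower under DRF (7.79%, against 24.3% of all genes tested) and 1 was higher (against 1.67%). The median difference of the 77 genes was -0.04 on the log2 scale, against -0.05 for all genes tested, and it was 0.02 with size factors from the median of ratios and 0.00299 with nuclear genes only. Mrpl36, a small large subunit protein with a bacterial counterpart, had the largest difference, at 77.1 ± 6.94 TPM under NRF and 70.5 ± 5.37 TPM under DRF (SD, n = 28; log2 difference -0.12 ± 0.03, adjusted p = 0.00198). It was followed by Mrpl20 (-0.12, adjusted p = 0.0236), Mrpl16 (-0.10, adjusted p = 0.00415), Mrps21 (-0.10, adjusted p = 0.0268) and Mrpl3 (-0.09, adjusted p = 0.00690), and Mrpl37 was the sixth gene called. Mrpl1, whose bacterial counterpart forms a lateral stalk, was higher, by 0.08 ± 0.03 (adjusted p = 0.0333). With the median of ratios the calls were 0 lower and 6 higher, and with nuclear genes only 1 lower and 3 higher, so the direction of the count depended on the scale. Without replicates 1, 2, 3 and 4 of every group in turn, 4, 2, 4 and 16 genes passed. In whole tissue a change in cell number cannot be told apart from a change in RNA per cell.

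Genes that work with the mitoribosome under other names were taken from lists and are described by counts, with differences between lists not tested. Of all genes tested, 37.2% were rhythmic under NRF, 32.2% under DRF and 27.5% had different rhythms. Of 5 further mitoribosomal proteins (Dap3, Ptcd3, Chchd1, Aurkaip1 and Gadd45gip1) 1 had a different rhythm, Chchd1, which peaked at ZT21.7 under NRF and was lower under DRF at ZT20 (-0.30, adjusted p = 0.0497). Among 12 factors of mitochondrial translation 3 were rhythmic under NRF (25%), 4 under DRF (33.3%) and 4 had different rhythms (33.3%). Mtif2, the initiation factor, peaked at ZT23.6 under NRF and ZT8.16 under DRF (adjusted p = 0.000203), close to the mean peaks of the ribosomal protein genes. Mtrf1l, a release factor, moved from ZT19.6 to ZT7.97 (adjusted p = 6.7e-05), and was not past the threshold under DRF alone. Mtif3, also an initiation factor, moved from ZT6.69 to ZT1.46 (adjusted p = 0.00104) and Mtrf1, a release factor paralog, from ZT11.2 to ZT2.89 (adjusted p = 0.00143).

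In the 12 alternatives the calls of a different rhythm held for Mtif2 and Mtrf1l, with highest adjusted p-values of 0.0103 and 0.00634. Those for Chchd1, Mtif3 and Mtrf1 were each lost in at least 1, with highest adjusted p-values of 0.175, 0.0674 and 0.0774.

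Among 26 genes for mitoribosome assembly and mitochondrial RNA handling, NRF gave 6 rhythmic ones, DRF gave 10, and 5 had different rhythms. These were 23.1%, 38.5% and 19.2%, against 37.2%, 32.2% and 27.5% of all genes tested. Mrm3 and Mrm1, which methylate the ribosomal RNA of the large subunit, were lower under DRF at ZT20 by differences of -0.55 (adjusted p = 0.0110) and -0.46 (adjusted p = 0.00548), whereas Ddx28, an RNA helicase of large subunit assembly, was higher (0.24, adjusted p = 0.0415). At that time 3 of the 26 were lower and 1 was higher, with a median of 0.02, against 11.5% lower and 3.35% higher of all genes tested. Among 12 regulators of mitochondrial gene expression 5 had different rhythms (41.7%, against 27.5% of all genes tested). Esrra, a nuclear receptor that drives genes of oxidative metabolism, peaked at ZT22.0 under NRF and was lower under DRF at ZT20 (-0.36, adjusted p = 0.000792), as was Tfam, the packaging factor of mitochondrial DNA (-0.17, adjusted p = 0.0424). Polrmt, the mitochondrial RNA polymerase, peaked at ZT7.71 under NRF and ZT3.11 under DRF (adjusted p = 0.0187 for a different rhythm), and Tfb2m, its transcription factor, at ZT12.2 under NRF (adjusted p = 0.00614). None of the calls of a different rhythm for these 4 regulators held in all 12 alternatives, with highest adjusted p-values of 0.230 for Esrra, 0.378 for Tfam, 0.138 for Polrmt and 0.181 for Tfb2m.

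The mitoribosome serves the respiratory chain and resembles the cytosolic ribosome, so these groups were counted alongside. Among 83 nuclear respiratory chain genes, NRF gave 27 rhythmic ones, 26 of them with a peak between ZT20 and ZT4, DRF gave 3, and 1 (Ndufa5, adjusted p = 0.0276) had a different rhythm. At ZT20 35 of the 83 were lower under DRF, against 11.5% of all genes tested, with a median of -0.23 against -0.07. Among 87 cytosolic ribosomal protein genes, NRF gave 11 rhythmic ones (12.6%) and DRF 3 (3.45%), and 2 had different rhythms. The 3 calls of a different rhythm in these lists were each lost in an alternative. The cytosolic pair were Rpl7l1 and Rps19bp1, which match the symbol pattern but are a paralog and a binding partner of ribosomal proteins. At ZT20 5 of the 87 were lower, against 11.5% of all genes tested, with a median of -0.23. Of the 13 mitochondrially encoded protein genes 3 were higher under DRF at ZT20 (3.35% of all genes tested were), with a median of 0.22. The counts of different rhythms were thus 22 of 77 for the mitoribosomal genes, 1 of 83 and 2 of 87, against 27.5% of all genes tested on this scale. After alignment to feeding they were 11 of 77, 11 of 83 and 10 of 87, against 41.3%. The differences between the lists were not tested. Clock genes served as a check of the labels, and 12 of 12 passed as rhythmic under NRF and 10 of 12 under DRF, with a median shift of 1.602 h in size.

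Some genes share exon sequence with a neighbour. The labels name no strand-specific kit, and exons of 29 of the 77 genes overlap those of another listed gene, in 16 of them over more than 10% of the exon length, so reads of such pairs may be split between them. Mrpl47 shares 616 bases with Ndufb5 (mean 11275 reads, against 1019 for Mrpl47) and 452 bases with Actl6a, and Mrpl19 shares 36.0% of its exon length with Gcfc2 (117 reads against 1114). Mrps34, among the largest amplitudes under DRF, shares 63.4% of its exon length with Mapk8ip3 (3540 reads against 1417), and Mrpl43 shares 41.8% with Twnk (1158 reads against 1721). Mrpl14, Mrpl18, Mrpl36, Mrpl48 and Mrps11 also overlap genes with more reads (Tmem63b, Tcp1, Ndufs6, Rab6a and Mrpl46). Whether reads over shared exons were dropped or assigned is not given in the sources used here, and its part in the values was not tested. Mrpl39, Mrps14, Mrpl20 and Mrpl35 share no exon with a listed gene.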

How the data were processed

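PolyA RNA from hearts was sequenced by the authors as paired reads on a NovaSeq, with HISAT2 2.0.5, featureCounts 1.5.0-p3 and build mm10 named in the submitters' processing notes. The deposited values, named TPM by the authors, are on another scale, a library constant multiplied by the logarithm of 1 + scaled reads and divided by exon length. Regimen, ZT and replicate were taken from the labels. The design had assumed linear TPM. Whole reads were therefore recovered from the steps of the low values with exon lengths from GENCODE M21 (GRCm38), and 99.9998% of 1192357 judged values lay within 0.1 of a whole read. A searched length was used for 833 genes, 798 of them on chromosomes 17 to 19 and 5 of them described here (Mrpl11, Mrpl16, Mrpl28, Mrpl43 and Mrpl49), and 4 genes were left out. The files hold Ensembl identifiers, of which the annotation paired 22852 with a symbol. The annotated gene Mrpl53 was not analysed here.

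Linear TPM was computed from the reads, and the 13892 genes that averaged 1 TPM or more were tested on the log2(TPM + 1) scale, which slightly understates changes of low genes. Tests were made in limma 3.58.1 (R 4.3.3) with eBayes (trend = TRUE) and Benjamini-Hochberg adjustment over all genes tested, with a threshold of 0.05. They were a 24 h harmonic F test within each regimen in place of MetaCycle, which was not installed, the interaction of regimen with the harmonic terms, the same after a shift of 12 h (feeding aligned), the regimen effect over the day, and contrasts of the 14 group means. SEs of peak times came from the delta method, and intervals are 95%. The scripts were tested on simulated data. The main tests used log2(TPM + 1), and voom weights on the recovered reads were run as an alternative. No molecular identifiers were used, and PCR copies count as reads.

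This gene family, whose members follow from the symbol, and the lists set beside it were chosen with earlier results of these data known. Genes named with values were the 5 highest and 3 lowest by level, the 6 with the largest amplitude among those rhythmic in each regimen, the 6 with the smallest p for a different rhythm, the 6 with the largest level difference among those called, the 5 with the largest difference at the time with most calls, those with the 3 smallest and 3 largest shifts, and up to 4 genes with a different rhythm per list. Alternatives were the pseudocount, the filter, the scaling, the deposited values, voom weights, a replicate block, a stricter threshold and leaving out replicates, libraries or times.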

Additional observations from a re-analysis of the deposited data

Results flagged for a closer look

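Single libraries stood apart from the other 3 of their group in 2 of 46 groups examined (the summed level in 14 groups and the values printed by library), and chance flags about 1 group in 20. The first was Mrpl47 under NRF at ZT12, where replicate 1 held 14.01 TPM and the others 11.1 to 11.2 TPM. The second was Mrpl12 under DRF at ZT20, where replicate 3 held 157 TPM and the others 120 to 124 TPM. Without replicate 3 of every group, which also removed the highest NRF library (198 TPM), the difference of Mrpl12 at ZT20 was -0.51 instead of -0.46.

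The interaction test of regimen and time marked 22 of the 77 genes. The 4 pseudogene rows left out of the 77 had reads in all libraries, with a mean per library of 57.6 for Mrpl23-ps1, 63.6 for Mrpl48-ps, 7.59 for Mrps36-ps2 and 8.91 for Mrps36-ps1. Whether these reads came from the parent genes was not tested.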

How the results depend on the processing

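The counts below are of the 77 genes. The counts of different rhythms without and with alignment to feeding (22 and 11) stayed within 1.5 times under all changes of scaling, filter and pseudocount, except 7 after alignment on the deposited values. With the median of ratios 36 genes were rhythmic under NRF, the median shift was 10.9 h, and 1, 9, 2 and 11 genes differed at ZT0, ZT12, ZT16 and ZT20. With nuclear genes only 9 were rhythmic under DRF, 4 differed in level, and 1, 5, 1 and 7 at these times. On the deposited values the counts were 7 under DRF, 3 in level, and 0, 1 and 5 at ZT0, ZT16 and ZT20. With voom weights they were 35 under NRF, and 1, 11, 1 and 16 at ZT0, ZT12, ZT16 and ZT24. Without the filter 0 differed at ZT0. With marker covariates 15 differed at ZT12 and 1 at ZT16. The cause was not tested. A threshold of 0.01 gave 8 under NRF, 6 under DRF, 2 under both, 10 with different rhythms, 4 after alignment and 3 in level.

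Leaving out a time of day lowered several counts. Without ZT12 they were 7 under NRF, 2 under both and 8 with different rhythms. Without ZT16 they were 15, 3 under both and 5 after alignment. Without ZT20 they were 13 under NRF, 8 under DRF, 3 under both, 12 with different rhythms, 7 after alignment and 3 in level, and without ZT24 they were 15 under NRF, 1 under both and 14 with different rhythms. Level calls were 15 without ZT4 and 1 without ZT8.

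Leaving out one replicate number at a time gave 6 to 19 genes rhythmic under NRF, 6 to 8 under DRF, 0 to 3 under both, 9 to 17 with different rhythms, 6 to 11 after alignment and 2 to 16 in level, with a median level difference of -0.06 to -0.02 and a median shift of 7.30 to 8.82 h (without replicate 2 there was no gene rhythmic under both and so no shift). Leaving out single libraries or replicate numbers gave 0 to 4 at ZT0, 0 to 2 at ZT4, 0 at ZT8, 1 to 5 at ZT12, 0 at ZT16, 6 to 33 at ZT20 and 1 to 14 at ZT24.

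Replicate numbers did not pair the libraries. Of 28 pairs with the same number, 1 had deviations correlated above 0.1 (median -0.03), and 6 of 56 libraries correlated best with their own number. With the replicate number as a block 23 genes were rhythmic under NRF, 19 under DRF, 22 differed in rhythm and 28 at ZT20. Of the results for named genes, 601 kept their side of the threshold, 92 lost it, 3 gained it and 0 turned direction.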
